A study of Mus musculus with 23 samples.

Results

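The genes described here are 37 imprinted genes of the mouse, taken by symbol from a given list, and 36 of them had a mean normalized count of at least 10 in the fathers or in the offspring. Those 36 are part of 17675 genes that met this minimum among 51912 gene identifiers measured. Phlda2, which is maternally expressed in placenta, was left out with a mean of 0.240 in the fathers and 0.344 in the offspring. By the allele they are known to be expressed from, 19 of the 36 are paternally expressed, 7 are maternally expressed, and the other 10 are imprinted only in some isoforms or tissues, or with a bias. The data give the summed RNA of both alleles and do not show which allele it came from.

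The libraries were made from hippocampal RNA of wild type male C57BL/6 mice, an inbred strain, in 4 groups over 2 generations. Treadmill running, 40 minutes each day through 6 weeks, was given to the 4 exercised fathers. The 4 sedentary fathers had no access to exercise, and both groups were killed at 7 months. The 8 offspring of sedentary fathers and 7 offspring of exercised fathers were killed at 5.5 months, and no exercise is given for them in the labels. The study set out to compare exercised with sedentary fathers, and the offspring of the former with the offspring of the latter. The labels do not say which father sired which of the offspring.

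Genomic imprinting is the expression of a gene from the copy inherited from a given parent, set by DNA methylation laid down in the germ line and kept in the body's cells. Imprinted genes lie in clusters in which a control region and, often, a long noncoding RNA act on several neighbours. Many are abundant in neurons, and losses of the Snrpn, Ndn, Magel2 and Mkrn3 region or of Ube3a underlie Prader-Willi and Angelman syndromes in humans.

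Libraries held between 33667580 and 55172616 reads. All 8 markers of hippocampal neurons had a count of at least 10 in every library, with summed normalized counts from 34978 to 45650. All 16 choroid plexus markers did too, but their sum ranged from 11473 to 279988 in sedentary fathers, 87479 to 307843 in exercised fathers, 13781 to 256639 in offspring of sedentary fathers and 13253 to 289495 in offspring of exercised fathers. The summed thalamus and habenula markers reached 26542 in the sedentary fathers and at most 13541 in any other group. Barcode labels of the series AD21 marked 3 libraries, which were exercised father 4 and, among offspring of sedentary fathers, replicates 7 and 8. In the offspring of exercised fathers, 3 pairs of libraries shared the stem of their title. By a chi-square of read counts per degree of freedom these were the most alike pairs of that group, at 6.22, 12.8 and 6.82. The other pairs of that group had 22.5 or more.

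Imprinted RNAs ranged widely in level. Per kilobase of merged exons, the highest paternally expressed genes were Snrpn, which encodes the spliceosomal protein SmN, with 13148 normalized counts, Nap1l5, a nucleosome assembly protein relative, with 7238, and Snurf, a short reading frame upstream of Snrpn, with 5241. The highest maternally expressed genes were the noncoding RNA Meg3 with 3926 counts per kilobase, Rian, which hosts small nucleolar RNAs, with 952, and the ubiquitin ligase gene Ube3a with 379. Ube3a is maternally expressed in neurons and from both alleles elsewhere. Among the isoform or tissue dependent genes the highest per kilobase were Gnas, which encodes the stimulatory G protein alpha subunit, with 5026, Begain, a postsynaptic density protein gene, with 1120, and Blcap with 1102. At the other end, H19, a noncoding RNA of fetal tissues, had 4.53 counts per kilobase and Mkrn3, a ubiquitin ligase gene that restrains puberty, had 14.8. Snrpn and Snurf share exons on 1 strand, as do Commd1 and a neighbouring gene model, so the authors' assignment of reads between them is uncertain. The high value of Snurf per kilobase comes from merged exons of only 216 bases, with a mean of 1132 counts. Ndn, with a mean of 9064 counts, had 2454 per kilobase.

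The spread over the 23 libraries also differed between genes. Gnas, Snrpn, Zrsr1, Peg13 and H13 had coefficients of variation of 4.72%, 4.81%, 5.29%, 5.43% and 5.68%. Snrpn lay between 25056 and 30948 normalized counts in all libraries, and Gnas between 50156 and 61156. The coefficient was 58.9% for H19, 45.1% for Cdkn1c, 34.3% for Dlk1, 33.8% for Magel2, 23.1% for Mkrn3 and 23.1% for Ddc. H19 rested on 2 reads in its lowest library, so counting error is a large share of its spread.

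**Figure D1:**
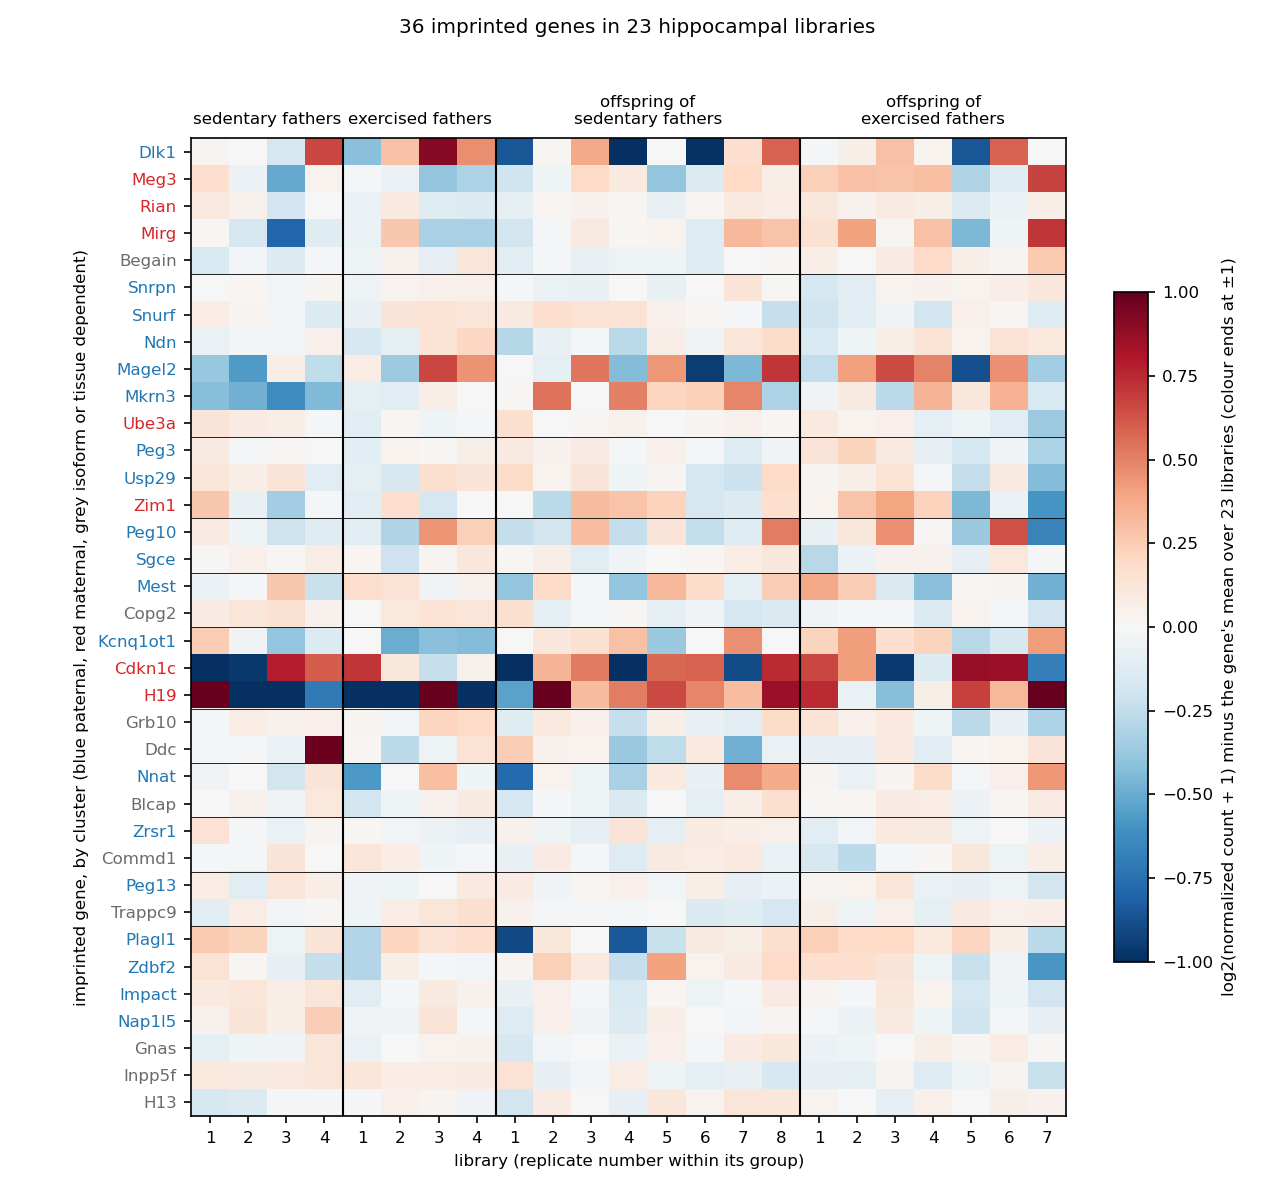
Heat map of the 36 imprinted genes (rows, by gene cluster) in the 23 libraries (columns, by group and replicate). Colour is log2(normalized count + 1) minus the gene's mean over all libraries. H19, Cdkn1c, Magel2 and Dlk1 carry most of the strong colours, while Snrpn, Gnas and Zrsr1 stay near 0 in every group.

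The first comparison asked how the exercised fathers differed from the sedentary fathers. No imprinted gene passed the threshold, an adjusted p under 0.05 with limma over all 17675 genes, and no other gene did either (0.0%). With an unadjusted p under 0.05 there were 1412 genes (7.99%), and 3 of the 36 imprinted genes, which were Mkrn3, Ube3a and Impact. The 36 differences ranged from -0.49 to 0.49 on the log2(normalized count + 1) scale, used for all differences below, and their median absolute size of 0.083 stood beside 0.074 over all genes. For 30 of the 36 the 95% interval of the difference lay within 1.5-fold in either direction. The 6 for which it did not were Cdkn1c, Ddc, Dlk1, H19, Magel2 and Mkrn3, for which a change of that size is within the interval.

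Mkrn3 (chr7:62417593-62420139, minus strand, GRCm38) had 27.1, 26.1, 23.3 and 26.8 normalized counts in the sedentary fathers and 34.2, 33.9, 38.4 and 36.5 in the exercised fathers. The groups did not overlap, and Mkrn3 was the only imprinted gene of 36 for which this held, against 4.95% of all genes. Its difference was 0.46 (SE 0.15, limma, unadjusted p = 0.0133, adjusted p = 0.560). Magel2, its neighbour and a gene of protein trafficking, had 104, 91.2, 142 and 114 counts in the sedentary fathers and 143, 105, 216 and 186 in the exercised fathers. These groups overlapped, with a difference of 0.49 (SE 0.22, limma, unadjusted p = 0.0514, adjusted p = 0.620).

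Ube3a had 8545, 8263, 8193 and 7718 counts in the sedentary fathers and 7244, 7919, 7555 and 7703 in the exercised fathers. Only replicate 2 of the exercised fathers lay inside the sedentary range, and the difference was -0.10 (SE 0.042, limma, adjusted p = 0.597). Impact, a gene whose protein restrains the kinase GCN2, had 11367, 11537, 11142 and 11565 counts in the sedentary fathers and 9826, 10498, 11291 and 10922 in the exercised fathers, a difference of -0.10 (SE 0.045, limma, adjusted p = 0.620). Nap1l5 had 13707, 14575, 13855 and 15797 counts in the sedentary fathers against 13022, 13008, 14525 and 13203 in the exercised fathers, a difference of -0.11 (SE 0.055, limma, adjusted p = 0.635). In both genes replicate 3 of the exercised fathers lay inside the sedentary range. H13, which encodes signal peptide peptidase, had 2029, 2059, 2254 and 2243 counts in the sedentary fathers and 2239, 2348, 2312 and 2208 in the exercised fathers, and the groups overlapped (difference 0.09, SE 0.046, limma, adjusted p = 0.646). The lowest of these counts, 2029 and 2059, came from sedentary fathers 1 and 2. Their counts of Ttr, a choroid plexus transcript, were 770 and 6009, against 46044 or more in the other fathers. H13 rose with Ttr over all libraries, as given below. With Ttr as a covariate the difference of H13 kept its direction and did not pass, and the cause of its low values was not tested. edgeR called 0 genes, and DESeq2 called 61 (0.345%), none of them among the 36. For Mkrn3 DESeq2 gave no adjusted p (DESeq2 unadjusted p = 0.0730), so it could not call that gene. Leaving out exercised father 4, the only AD21 library among the fathers, left the number of imprinted genes called at 0.

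The second comparison set the offspring of exercised fathers against the offspring of sedentary fathers. Again no imprinted gene and no other gene passed with limma (0 of 17675, 0.0%), while 1730 genes (9.79%) had an unadjusted p under 0.05. Of the 36 imprinted genes 2 were among these, Begain with higher and Snurf with lower counts in the offspring of exercised fathers. The differences ranged from -0.17 to 0.30, with a median absolute size of 0.067, as over all genes. For 31 of the 36 the 95% interval lay within 1.5-fold, and for Cdkn1c, Dlk1, H19, Magel2 and Plagl1 it did not.

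Begain (chr12:109032187-109068217, minus strand) had a lowest, median and highest count of 4524, 4767 and 4978 in the offspring of sedentary fathers. In the offspring of exercised fathers these were 4938, 5156 and 5921. The groups overlapped only in the narrow range between 4938 and 4978, and 0 of the 36 genes were free of overlap, as were 0.147% of all genes. The difference was 0.15 (SE 0.039, limma, unadjusted p = 0.00146, adjusted p = 0.366). DESeq2 called 47 genes (0.266%), and Begain was the only imprinted gene among them (log2 difference 0.15, DESeq2 adjusted p = 0.0479). That fit counts the 7 libraries with exercised fathers as separate, although they have 4 title stems. With libraries of a shared stem averaged, Begain kept its direction and did not pass with limma. edgeR called 0 genes.

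Snurf had 959, 1181 and 1269 counts (lowest, median, highest) in the offspring of sedentary fathers and 982, 1046 and 1167 in the offspring of exercised fathers, a difference of -0.13 (SE 0.058, limma, adjusted p = 0.497). Plagl1, a zinc finger transcription factor gene, had 719, 1373 and 1499 against 1117, 1534 and 1584, a difference of 0.30 (SE 0.16, limma, adjusted p = 0.532). Its lowest values, 719 and 752, came from replicates 1 and 4 among those with sedentary fathers, whose Ttr counts of 1136 and 1514 were the lowest of that group. Other libraries with low Ttr did not have low Plagl1, such as replicate 3 of those with exercised fathers (Ttr 1808, Plagl1 1546) and sedentary father 1 (Ttr 770, Plagl1 1611). With Ttr as a covariate the difference of Plagl1 between the groups of offspring kept its direction and did not pass. Its slope on Ttr is given below, and the cause of the low values was not tested. Trappc9, a vesicle trafficking gene, had 2942, 3259 and 3416 against 3106, 3438 and 3526 (difference 0.08, SE 0.039, limma, adjusted p = 0.514). Ube3a had 7801, 7939 and 8705 against 6075, 7562 and 8338 (difference -0.10, SE 0.054, limma, adjusted p = 0.551), and the lowest value came from replicate 7 of the offspring of exercised fathers. Zdbf2, a zinc finger gene, had 1438, 1802 and 2237 against 1131, 1652 and 1900 (difference -0.17, SE 0.11, limma, adjusted p = 0.606), with its lowest value in the same library.

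**Figure D2:**
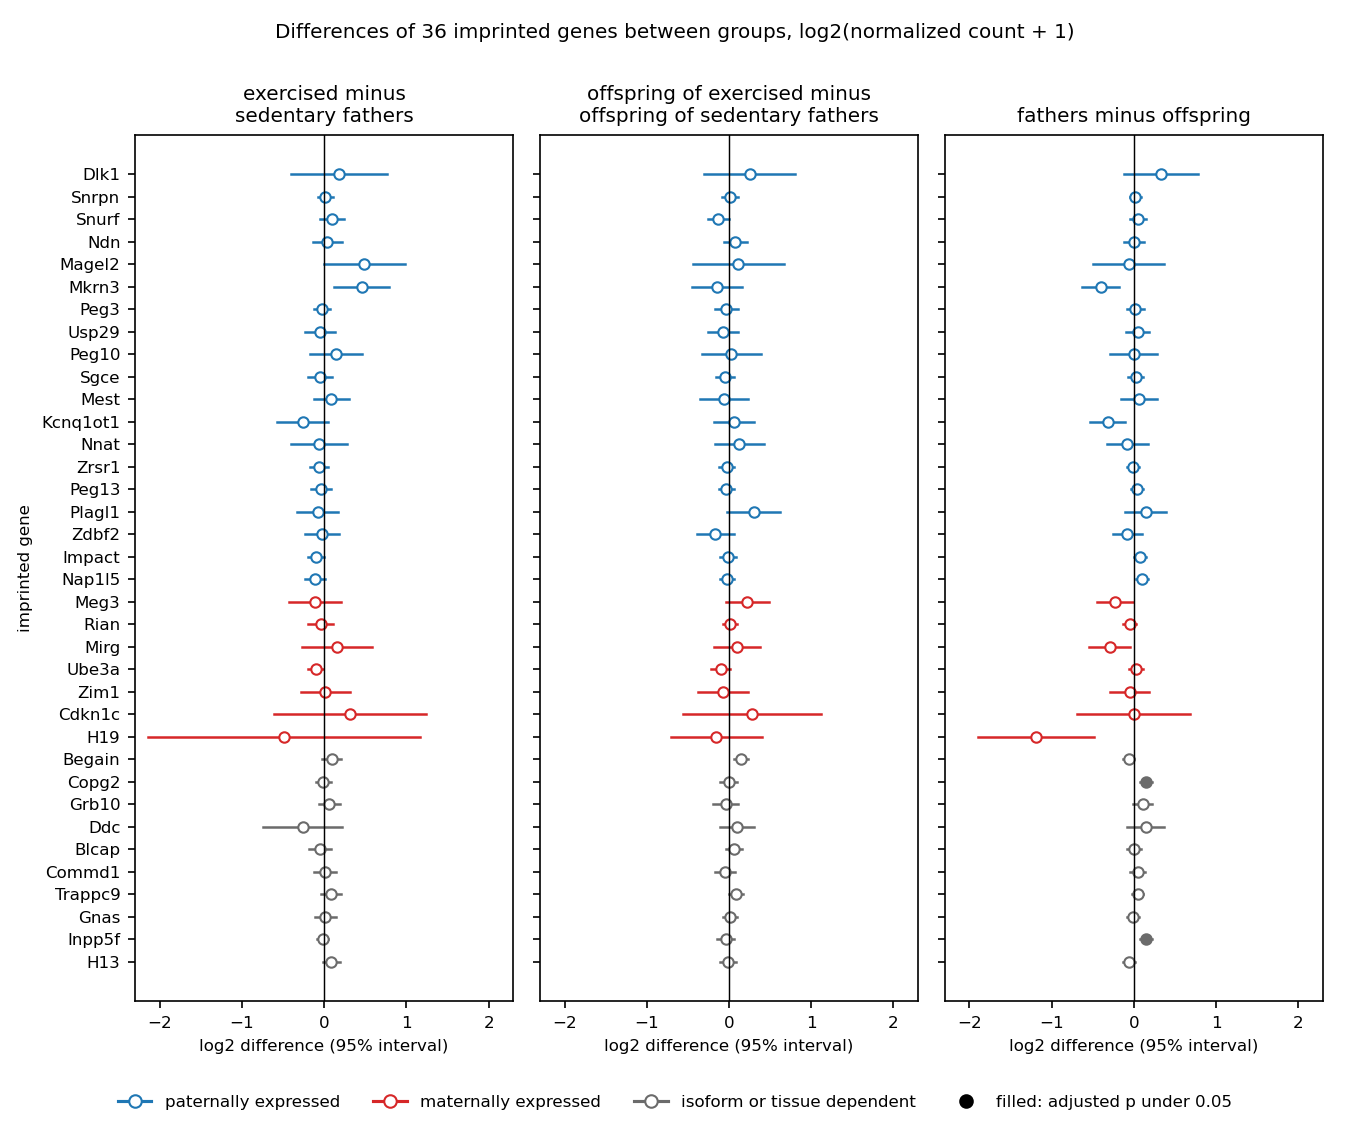
Log2 difference with its 95% interval for each of the 36 imprinted genes in 3 comparisons, coloured by allele class, with filled points for an adjusted p under 0.05. The 2 filled points, Copg2 and Inpp5f, are in the panel of fathers minus offspring, and the widest intervals are those of H19 and Cdkn1c.

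The difference between the effects in the 2 generations was tested directly. No gene passed (limma, 0 of 17675, 0.0%; edgeR 0, DESeq2 6), and 1008 genes (5.70%) had an unadjusted p under 0.05. Mkrn3 and Snurf were the 2 imprinted genes among those. For Mkrn3 the effect in fathers minus that in offspring was 0.60 (SE 0.21, limma, unadjusted p = 0.00995, adjusted p = 0.775), with effects of 0.46 in fathers and -0.15 in offspring. For Snurf it was 0.22 (SE 0.094, limma, unadjusted p = 0.0268, adjusted p = 0.844). The values were 0.097 for H13, -0.36 for Ddc, -0.32 for Kcnq1ot1 and -0.33 for Meg3, with limma adjusted p of 0.903 or more. Without sedentary father 4, whose high Ddc count is given below, the value of Ddc was -0.11.

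Fathers and offspring could be compared because both tables were on a common scale, with each library's median ratio to the mean of all libraries between 1.0026 and 1.0061. Generation, age and whatever else differed between the sets cannot be told apart. Inpp5f and Copg2 were higher in fathers, and 34 of the 36 imprinted genes did not pass. No imprinted gene was free of overlap between the generations, against 0.0396% of all genes. Of all genes, 244 passed (1.38%), 90 of them higher in fathers (0.509%), while edgeR called 1.82% and DESeq2 4.35%, each with Inpp5f and Copg2 among them. The 36 differences had a median of 0.011, beside 0.0059 over all genes. Of 3047 genes (17.2%) with an unadjusted p under 0.05, 9 were imprinted genes, with 4 higher and 5 lower in fathers.

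Inpp5f (chr7:128611328-128696425, plus strand) encodes a phosphoinositide phosphatase, and an isoform made in brain is paternally expressed. It had 5642, 5582, 5611 and 5697 counts in the sedentary fathers and 5707, 5500, 5503 and 5546 in the exercised fathers. In the 15 offspring the lowest, median and highest counts were 4500, 4962 and 5798. The 8 fathers lay within a narrow range that the offspring reached in 2 libraries with sedentary fathers, replicate 4 within it at 5508 and replicate 1 above it at 5798. The difference was 0.15 (SE 0.034, limma, adjusted p = 0.0304), or 1.11-fold. Leaving out any of 5 libraries ended the call, with adjusted p between 0.0516 and 0.0740. They were replicates 3 and 4 of the sedentary fathers, 1 and 3 of the exercised fathers and 4 of the offspring of exercised fathers.

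Copg2 (chr6:30747554-30896794, minus strand) encodes a coatomer subunit of vesicle transport, and its 3' end overlaps that of Mest on the other strand. It had 3503, 3587, 3668 and 3408 counts in the sedentary fathers and 3295, 3556, 3626 and 3600 in the exercised fathers. The offspring had 2895, 3217 and 3700 (lowest, median, highest), and the highest, in replicate 1 of those with sedentary fathers, exceeded every father. The difference was 0.15 (SE 0.037, limma, adjusted p = 0.0474), or 1.11-fold, and leaving out any of 18 of the 23 libraries ended the call, with adjusted p up to 0.111. The call held only without exercised father 1, without replicate 1, 3 or 4 of the offspring with sedentary fathers, or without replicate 5 of those with exercised fathers. Both calls were lost with the thalamus and habenula markers as a covariate, where the adjusted p was 0.217 for Inpp5f and 0.262 for Copg2 and the number of genes called fell to 12. The differences there were 0.13 for both genes, close to the 0.15 without it. Both were lost without the AD21 libraries too (differences 0.14 and 0.12, adjusted p = 0.0736 for Inpp5f and 0.123 for Copg2), and without replicates 3 and 4 of the sedentary fathers together, which had the high thalamus markers (differences 0.15 and 0.15, adjusted p = 0.181 and 0.203). Averaging the offspring libraries that share a title stem also ended both calls (adjusted p = 0.0512 and 0.0747), as did testing with no filter on low values (0.0512 and 0.0749).

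Several genes with lower values in the fathers came near the threshold. Mkrn3 had 29.5, 39.9 and 53.9 counts (lowest, median, highest) in the offspring, and the sedentary fathers lay below all 15 of them. The difference was -0.40 (SE 0.11, limma, adjusted p = 0.0571), and both edgeR (adjusted p = 0.0476) and DESeq2 (adjusted p = 0.0449) called it. With limma it passed without replicate 1 or replicate 8 of the offspring whose fathers were sedentary (adjusted p between 0.0282 and 0.0464), and with Ttr as a covariate (0.0499). H19 had 19.5, 3.26, 3.33 and 5.16 counts in the sedentary fathers and 2.01, 2.00, 20.5 and 2.09 in the exercised fathers, against 5.97, 13.2 and 23.7 (lowest, median, highest) in the offspring. Thus 6 of 8 fathers lay below every one of the offspring and the other 2 lay among them, with a difference of -1.19 (SE 0.34, limma, adjusted p = 0.0668; edgeR 0.281, DESeq2 0.250). Its size depends on the scale: it was -0.51 with a pseudocount of 10, and -0.80 with edgeR and -0.84 with DESeq2 on whole reads. Without replicate 3 of the exercised fathers the limma difference of H19 was -1.55 and passed (adjusted p = 0.0140). It also passed without sedentary father 1 or without replicate 1 of the offspring whose fathers were sedentary, with adjusted p up to 0.0488. H19 met the minimum mean only through the offspring, with 13.2 against 7.23 in the fathers. That selection favours lower values in fathers, so these tests are no support for such a difference. Kcnq1ot1, the long noncoding RNA that silences its cluster on the paternal chromosome, had 3176, 2594, 2034 and 2419 counts in the sedentary fathers and 2660, 1882, 1995 and 1971 in the exercised fathers. The offspring had 2054, 2963 and 3647 (lowest, median, highest), and the difference was -0.32 (SE 0.10, limma, adjusted p = 0.0971; DESeq2 0.0406).

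Nap1l5 differed by 0.10 (SE 0.036, limma, adjusted p = 0.137), with 13008, 13781 and 15797 counts in the fathers and 11618, 13057 and 14142 in the offspring (lowest, median, highest). Among the maternally expressed noncoding RNAs of the Dlk1-Meg3 cluster, Mirg differed by -0.29 (adjusted p = 0.202), Meg3 by -0.23 (adjusted p = 0.259) and Rian by -0.05 (adjusted p = 0.548), all with limma.

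**Figure D3:**
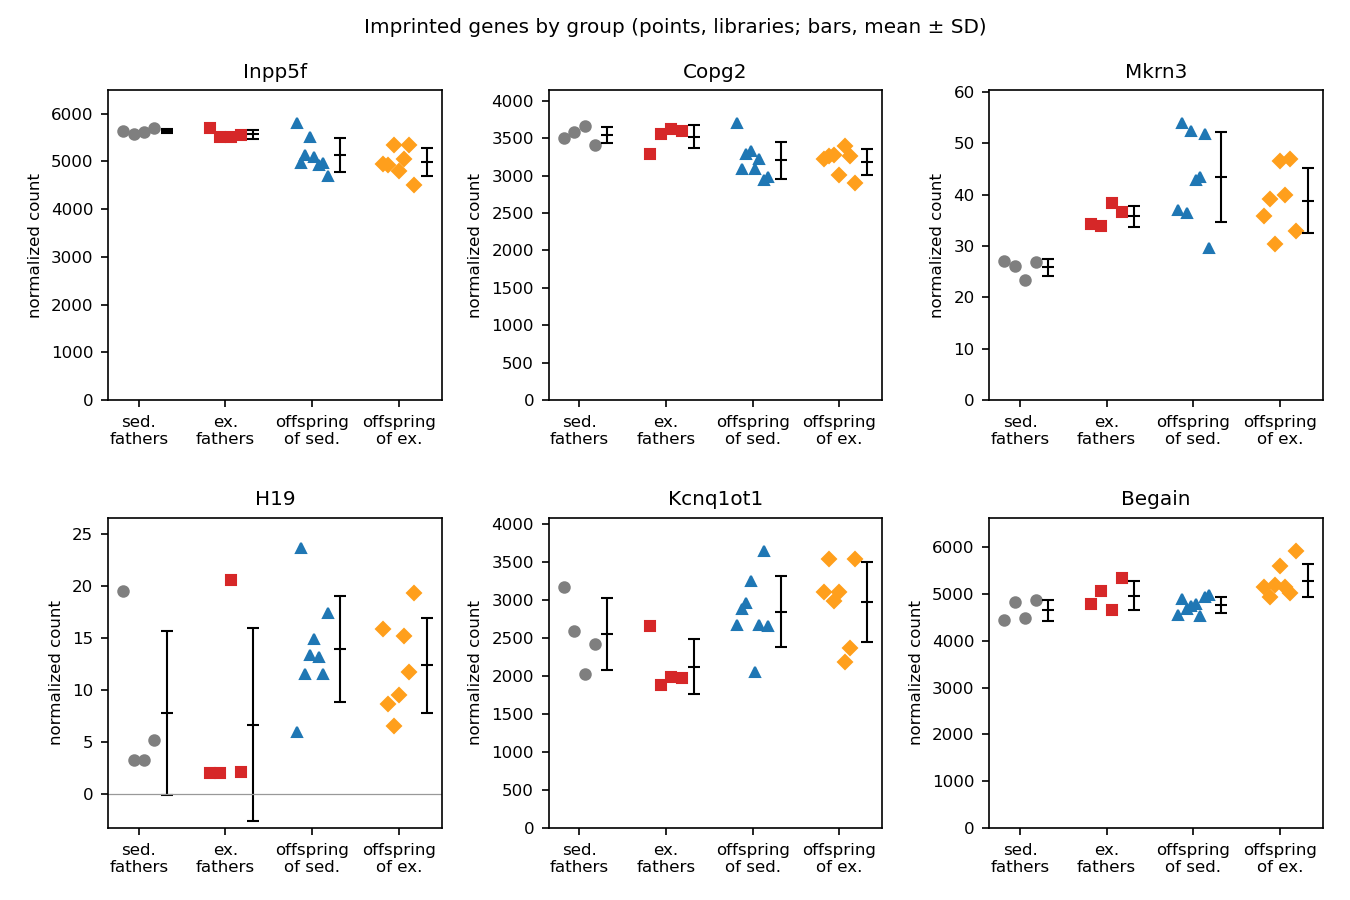
Normalized counts of Inpp5f, Copg2, Mkrn3, H19, Kcnq1ot1 and Begain in the 4 groups, with a point for each library and the mean ± SD beside them. Inpp5f is tightly grouped in both groups of fathers, Mkrn3 is lowest in the sedentary fathers, and 1 library in each group of fathers stands high for H19.

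The paternally and maternally expressed genes were then set side by side over the 4 groups, as counts and medians without a test. In fathers 8 of the 19 paternally expressed genes and 3 of the 7 maternally expressed genes were higher after exercise, with median differences of -0.030 and -0.045. In offspring 8 of 19 and 4 of 7 were higher with exercised fathers, with medians of -0.024 and 0.012. Over all genes 51.1% and 49.6% were higher in these comparisons, with medians of 0.0027 and -0.00089. Between the generations 11 of the 19 paternally expressed genes were higher in fathers (median 0.020), but 1 of the 7 maternally expressed genes was (median -0.051), against 52.9% of all genes (median 0.0059). Leaving out 1 library at a time gave a paternal median in fathers between -0.043 and 0.041, a maternal one between -0.10 and 0.018, and a maternal median for fathers minus offspring between -0.16 and -0.040. The lowest maternal medians in both were without sedentary father 3. Of the 10 isoform or tissue dependent genes, 7 were higher in fathers (median 0.047).

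The mean of log2(normalized count + 1) over the paternally expressed genes was 11.16 ± 0.036 in sedentary fathers (SD, n = 4), 11.20 ± 0.12 in exercised fathers (n = 4), 11.18 ± 0.12 in offspring of sedentary fathers (n = 8) and 11.19 ± 0.12 in offspring of exercised fathers (n = 7). Over the maternally expressed genes it was 10.06 ± 0.22, 10.03 ± 0.13, 10.28 ± 0.20 and 10.32 ± 0.12 in the same order. The paternal mean minus the maternal mean was 1.099 ± 0.18 and 1.17 ± 0.16 in the groups of fathers and 0.90 ± 0.12 and 0.87 ± 0.17 in the groups of offspring. The ranges over libraries overlapped between the generations, with 0.90 to 1.40 in fathers and 0.68 to 1.17 in offspring. Levels in these means are per gene and not per length, and H19, with few reads and the widest spread, is 1 of the 7 maternally expressed genes in them. H19 met the minimum count only through the offspring, which favours lower maternal values in fathers.

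Choroid plexus content was followed through Ttr, the transthyretin gene that this tissue expresses at a very high level. Ttr was 770 and 6009 counts in replicates 1 and 2 of the sedentary fathers and 163326 and 121017 in replicates 3 and 4, and it ranged from 1136 to 187843 in the offspring. In a fit with the 4 group means, 1275 of 17674 genes followed Ttr within groups (7.21%), and 1034 of them rose with it (5.85%), while edgeR called 7.72% and DESeq2 8.7%. Of the 36 imprinted genes 3 rose with Ttr and none fell, and the 3 were Cdkn1c, Mest and H13. In a bulk sample, fewer cells of a type and less RNA per cell cannot be told apart.

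Cdkn1c encodes p57, an inhibitor of cell division, and is maternally expressed. It had 234, 243, 821 and 724 counts in the 4 sedentary fathers, in the order of the Ttr values above, and 782, 515, 406 and 490 in the exercised fathers, where Ttr was 169193, 119331, 46044 and 73908. In the offspring its lowest, median and highest counts were 154, 638 and 871. High Cdkn1c went with high Ttr in each group. The slope was 0.28 log2 units per log2 unit of Ttr (SE 0.020, limma, adjusted p = 4.82e-10), with 0.26 in the fathers alone (adjusted p = 0.00537) and 0.28 in the offspring alone (adjusted p = 2.98e-07).

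Mest, a paternally expressed hydrolase gene, had 1072, 1105, 1346 and 959 counts in the sedentary fathers and 1258, 1233, 1091 and 1152 in the exercised fathers, and the offspring had 800, 1125 and 1450 (lowest, median, highest). Its slope was 0.064 (SE 0.014, limma, adjusted p = 0.00431). Offspring alone gave 0.081 (adjusted p = 0.00317) and fathers alone 0.018 (adjusted p = 0.715). The slope of H13 was 0.021 (SE 0.0048, limma, adjusted p = 0.00601). H13 did not pass in the fathers alone (adjusted p = 0.297), in the offspring alone (0.0811) or without the 2 libraries farthest from the median Ttr (0.134). With the mean of the other 15 choroid plexus markers in place of Ttr, all 3 genes rose (adjusted p = 2.29e-13 for Cdkn1c, 0.00121 for Mest and 0.0325 for H13). The calls of Cdkn1c and Mest held with the meningeal markers as a further covariate, and that of H13 did not (adjusted p = 0.0889). The meningeal list includes Igf2, which itself followed Ttr, so this covariate is not independent of Ttr.

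The other 33 imprinted genes did not pass. Plagl1 had a slope of 0.053 (limma, adjusted p = 0.106), but it passed in the offspring alone (0.088, adjusted p = 0.00815) and was -0.040 in the fathers alone (adjusted p = 0.416). It also passed without sedentary father 1 (0.070, adjusted p = 0.0383) or sedentary father 3 (0.064, adjusted p = 0.0476), and was 0.033 without replicate 1 of the offspring with sedentary fathers (adjusted p = 0.406). Zrsr1, a splicing factor gene, had a slope of -0.015 (adjusted p = 0.126), Kcnq1ot1 -0.039 (adjusted p = 0.182) and Meg3 -0.035 (adjusted p = 0.271). Zrsr1 passed once replicate 7 of the offspring of exercised fathers was left out (adjusted p = 0.0390). No call was made for Inpp5f (slope -0.0096, adjusted p = 0.397), Copg2 (-0.0069, adjusted p = 0.609), Begain (-0.0019, adjusted p = 0.897) or Mkrn3 (0.0044, adjusted p = 0.929), all with limma.

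**Figure D4:**
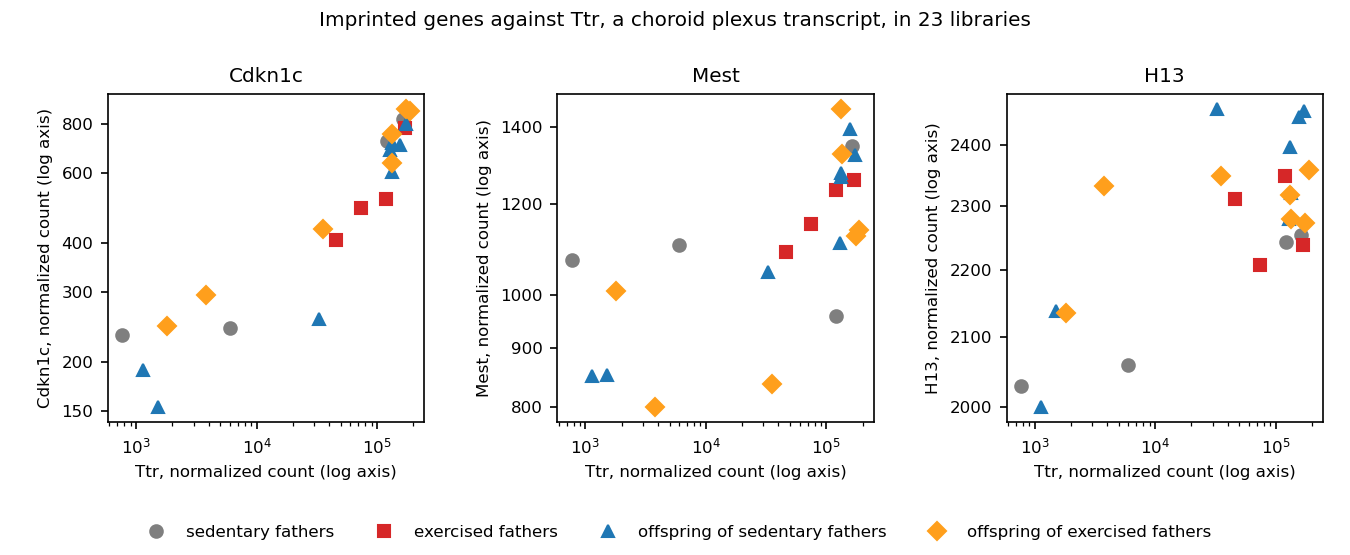
Normalized counts of Cdkn1c, Mest and H13 against those of Ttr in the 23 libraries, on log axes, with a symbol for each group. Cdkn1c climbs from 154 to 871 along the Ttr axis, while Mest and H13 climb less steeply and with more scatter.

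Markers of other neighbouring tissue were examined in the same way, a choice made after the values had been seen. None of the 36 imprinted genes followed the mean of the thalamus and habenula markers (71 of 17663 genes called, 0.402%) or that of the meningeal markers (298 of 17667, 1.69%). Ddc, which encodes the decarboxylase of dopamine and serotonin synthesis, had 475 counts in replicate 4 of the sedentary fathers and between 172 and 284 in the other 22 libraries. The same library had 479 counts of Slc6a3, the dopamine transporter gene, against at most 18.1 elsewhere, and 194 counts of Th against at most 62.7 elsewhere. The part of dopaminergic tissue in the Ddc value was not tested.

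Zic1, a transcription factor gene on the list of thalamus and habenula markers, ranged from 590 to 3203 counts. It was singled out after its values had been seen, so its relations are given without a test. Within groups Magel2 rose by 0.58 log2 units per log2 unit of Zic1 (SE 0.069), Peg10, a gene derived from a retrotransposon, by 0.32 (SE 0.063) and Usp29, a deubiquitinase gene, by 0.16 (SE 0.033). In the fathers alone these slopes were 0.44, 0.15 and 0.074, and in the offspring alone 0.63, 0.38 and 0.18. Of the 36 imprinted genes, these had the largest slopes relative to their SE, and slopes over all genes are not given here. Dlk1 had a slope of 0.31 with a wider SE of 0.13. The slope of Zim1 was -0.23 in the fathers alone and 0.29 in the offspring alone. In replicate 3 of the exercised fathers Zic1 was 3181 and Magel2 216, and in replicate 2 they were 937 and 105. Not every library went this way, as replicate 1 of the offspring of sedentary fathers had 2520 and 135.

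Neighbours within a cluster were compared library by library, on log2 values centred on their group means, in 17 pairs. Pearson's r was above 0.5 in 6 pairs and had a median of 0.17, beside a median of 0.087 over 17602 pairs of genes adjacent on a chromosome, of which 11.8% were above 0.5. The 6 pairs came from 3 clusters. Shared depth, tissue content and RNA quality act on both genes of a pair, and their part was not tested.

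In the Dlk1-Meg3 cluster, the maternally expressed noncoding RNAs varied together. Pearson's r was 0.83 between Meg3 and Rian (Spearman's rho 0.73), 0.82 between Rian and Mirg (rho 0.80) and 0.86 between Meg3 and Mirg (rho 0.85), over 23 libraries. In all 3 pairs the two-sided permutation p of r was 2e-05, the smallest that 100000 permutations can give, or 8.5e-05 adjusted over the 17 pairs. Without the 2 libraries farthest from the median, r was 0.73, 0.71 and 0.78, and it was 0.71 or more in fathers alone and in offspring alone. Replicate 7 of the offspring of exercised fathers was highest for Meg3 with 111524 counts and for Mirg with 534, and replicate 3 of the sedentary fathers was lowest for all 3, with 48961, 15206 and 187. Dlk1, the paternally expressed Notch-like ligand gene of the cluster, did not follow Meg3 (r = 0.17, rho 0.10, permutation p = 0.442).

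The promoter windows of Meg3 and Rian, from 250 bases before to 50 after the gene's start, are shown because these RNAs moved together and are described as products of a shared maternal transcription unit. Capitals mark TGCCGC, the core of the motif of the imprint-keeping protein ZFP57, or its complement GCGGCA. The Meg3 window shown (GRCm38.p6, chr12:109540746-109541045, plus strand) had 13 CG dinucleotides and 1 match, and the Rian window (chr12:109603695-109603994, plus strand) had 0 of each. Another RefSeq window of Meg3, not shown (chr12:109545148-109545447, plus strand), had 1 CG dinucleotide and 0 matches.
Meg3: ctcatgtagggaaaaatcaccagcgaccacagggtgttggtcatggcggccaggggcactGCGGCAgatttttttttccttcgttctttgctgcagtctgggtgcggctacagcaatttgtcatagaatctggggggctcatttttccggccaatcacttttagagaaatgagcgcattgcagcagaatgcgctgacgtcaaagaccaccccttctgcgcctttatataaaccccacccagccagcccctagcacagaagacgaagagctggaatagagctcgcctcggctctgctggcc
Rian: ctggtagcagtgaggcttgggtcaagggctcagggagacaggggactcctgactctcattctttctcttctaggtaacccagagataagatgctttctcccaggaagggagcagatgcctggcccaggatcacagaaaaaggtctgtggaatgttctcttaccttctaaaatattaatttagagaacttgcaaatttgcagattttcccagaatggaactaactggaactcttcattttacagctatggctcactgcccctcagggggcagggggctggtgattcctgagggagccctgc

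Nnat, a paternally expressed gene of a small membrane protein of neurons, lies inside an intron of Blcap, which is on the opposite strand and maternally biased in brain. They had r = 0.85 (rho 0.84, permutation p = 2e-05, adjusted p = 8.5e-05), with 0.84 in the fathers and 0.85 in the offspring. The 2 lowest libraries were the same for both genes. Exercised father 1 had 6250 counts of Nnat and 2944 of Blcap, and replicate 1 of the offspring with sedentary fathers had 5447 and 2976. Their separate windows are shown because r was above 0.8 in both generations although the genes have separate starts. The Nnat window (chr2:157559828-157560127, plus strand) and the Blcap window (chr2:157566312-157566611, minus strand) each had 17 CG dinucleotides, and capitals mark the match to GCGGCA in the former.
Nnat: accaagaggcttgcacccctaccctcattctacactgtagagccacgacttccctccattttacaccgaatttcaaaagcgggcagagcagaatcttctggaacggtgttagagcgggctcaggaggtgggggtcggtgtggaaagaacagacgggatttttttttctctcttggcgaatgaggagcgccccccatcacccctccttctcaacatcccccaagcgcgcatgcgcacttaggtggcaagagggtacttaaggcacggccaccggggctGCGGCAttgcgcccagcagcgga
Blcap: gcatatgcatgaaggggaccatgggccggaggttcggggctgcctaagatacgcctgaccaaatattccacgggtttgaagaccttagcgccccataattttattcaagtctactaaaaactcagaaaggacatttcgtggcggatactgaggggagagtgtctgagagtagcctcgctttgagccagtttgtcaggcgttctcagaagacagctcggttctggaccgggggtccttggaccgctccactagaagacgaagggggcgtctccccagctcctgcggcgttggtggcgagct

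In the Peg3 cluster, Peg3, a zinc finger gene, went with its divergent neighbour Usp29 (r = 0.72, rho 0.62, permutation p = 0.0001, adjusted p = 0.00034) and with Zim1, a maternally expressed zinc finger gene (r = 0.68, rho 0.57, permutation p = 0.00046, adjusted p = 0.0013). In the fathers alone these were 0.38 and 0.52, and in the offspring alone 0.79 and 0.71. Replicate 7 of the offspring of exercised fathers was lowest for all 3, with 11603 counts of Peg3, 1380 of Usp29 and 147 of Zim1. Without the 2 libraries farthest from the median, r was 0.62 and 0.51. The starts of Peg3 and Usp29 in RefSeq lie 164 bases apart on opposite strands, so their windows share 263 bases, shown in capitals in both and each the reverse complement of the other. The Peg3 window is at chr7:6730370-6730669 on the minus strand and that of Usp29 at chr7:6730333-6730632 on the plus strand.
Peg3: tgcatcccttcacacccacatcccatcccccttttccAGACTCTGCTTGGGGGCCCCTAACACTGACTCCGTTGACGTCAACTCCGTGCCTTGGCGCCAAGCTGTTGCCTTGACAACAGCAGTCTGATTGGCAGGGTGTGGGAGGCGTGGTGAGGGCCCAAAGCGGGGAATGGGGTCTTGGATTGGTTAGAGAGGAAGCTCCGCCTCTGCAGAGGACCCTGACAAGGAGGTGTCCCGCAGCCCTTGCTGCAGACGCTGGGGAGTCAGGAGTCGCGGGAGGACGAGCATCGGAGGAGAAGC
Usp29: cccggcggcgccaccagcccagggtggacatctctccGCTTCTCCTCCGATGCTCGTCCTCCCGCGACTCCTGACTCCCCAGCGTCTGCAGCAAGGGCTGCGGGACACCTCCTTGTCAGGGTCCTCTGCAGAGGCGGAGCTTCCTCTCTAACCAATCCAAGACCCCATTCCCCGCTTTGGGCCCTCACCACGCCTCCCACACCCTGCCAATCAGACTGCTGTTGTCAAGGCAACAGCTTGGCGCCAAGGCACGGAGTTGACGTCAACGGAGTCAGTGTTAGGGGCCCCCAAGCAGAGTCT

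RefSeq windows of 300 bases were used for 30 of the 37 genes, 47 windows in all. Windows on chromosome 18, where Impact lies, were not used for the imprinted genes. Of these 13 held TGCCGC on either strand (27.7%), as did 11.6% of the 32851 windows of all genes. The windows of the imprinted genes had a median of 17 CG dinucleotides, against 7 over all windows, and some of them overlap or are the same window. A match describes these letters only.

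The other 11 pairs had r of 0.40 or less. Peg10 and Sgce, which share a bidirectional promoter, had 0.39 (rho 0.48, permutation p = 0.0614), and Ndn and Magel2 had 0.40 (rho 0.48, permutation p = 0.0599). Snrpn and Snurf had r = 0.074 (rho 0.049, permutation p = 0.723), although they share transcripts. Kcnq1ot1 and Cdkn1c went in opposite directions (r = -0.49, rho -0.49, permutation p = 0.0159, adjusted p = 0.0386), and Cdkn1c followed Ttr as described. Snrpn and Ube3a had r = -0.47 (rho -0.27, permutation p = 0.0229, adjusted p = 0.0486), but 0.31 in the fathers alone, against -0.55 in the offspring alone.

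**Figure D5:**
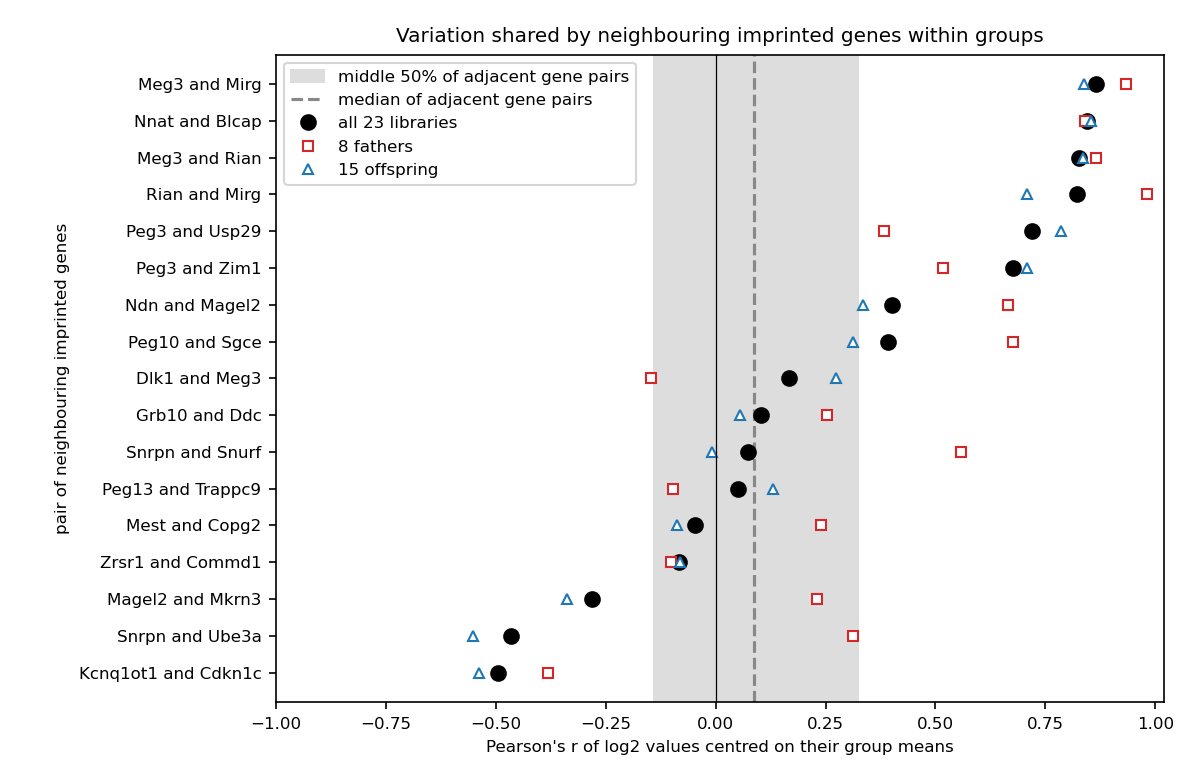
Pearson's r of log2 values centred on group means, for 17 pairs of neighbouring imprinted genes over 23 libraries (black), the 8 fathers (squares) and the 15 offspring (triangles), with the median and the middle 50% of adjacent gene pairs in grey. The 3 pairs of Meg3, Rian and Mirg and the pair of Nnat and Blcap lie above 0.8.

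A further list of 43 imprinted genes gave 36 with a mean of at least 10. None of them passed between exercised and sedentary fathers, between the groups of offspring or between the generations. Atp10a (-0.25, adjusted p = 0.497) and Ago2 (-0.16, adjusted p = 0.504) had an unadjusted p under 0.05 between the groups of offspring, as did 9.79% of all genes, and none did between the groups of fathers. Between the generations Gatm (0.18), Rasgrf1 (0.20) and Adam23 (0.09) had higher values in fathers and Sfmbt2 (-0.28) and Asb4 (-0.69) lower ones, with limma adjusted p between 0.103 and 0.220. With Ttr 4 of the 36 rose, where 5.85% of all genes did, and none fell: the growth factor gene Igf2 (slope 0.30, adjusted p = 1.11e-07), the paraoxonase gene Pon3 (0.26, adjusted p = 2.94e-05), the transporter gene Slc22a18 (0.21, adjusted p = 0.000244) and Pon2 (0.023, adjusted p = 0.0172), all with limma. Igf2 and Slc22a18 are, like Cdkn1c, on distal chromosome 7. In the fits to other tissue markers, 1 of the 36 followed the thalamus and habenula markers, against 0.402% of all genes. Of the 34 not on the meningeal list, 2 followed the meningeal markers, against 1.69% of all genes. Of 8 genes that keep imprints, 7 had a mean of at least 10 and none passed in any comparison. Zfp57 had 82.2, 117 and 158 counts in the fathers and 102, 143 and 191 in the offspring (lowest, median, highest), a difference of -0.26 (limma, adjusted p = 0.257).

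The authors' deposited table for the offspring gives adjusted p-values for 34 of the 36 genes, and 0 were under 0.05, with 0.144 for Begain as the lowest. In the authors' deposited table for the fathers, 0 of 36 were under 0.05. Over all genes the authors' deposited tables have 11 and 14 such genes.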

How the data were processed

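RNA from hippocampus, 500 ng per library, was enriched with oligo-dT and made into strand-specific libraries over 15 PCR cycles, then sequenced from both ends for 76 bases, as the labels' protocols give it. STAR 2.5.2a, RSEM 1.2.28, DESeq2 1.10 and GRCm38 appear in the submitters' processing notes. The sources used here do not give the annotation version or the strand setting of the counting, so antisense partners may share reads. Poly(A) selection limits what is measured of noncoding RNAs.

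The authors deposited normalized counts, treated here as a signal. Every library's values were multiples of a constant, and on that scale 100% fell within 0.1 of a whole read. The authors' deposited comparison tables also hold log2 fold changes, with standard errors and statistics taken as scores, and p-values, raw and adjusted, per the file headers. Deposited gene ontology tables and gene lists were not used. An unnamed outlier had been removed by the authors, per the file names.

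Genes with a mean of at least 10 in either table were tested two-sided on log2(normalized count + 1) using limma 3.58.1 (R 4.3.3) with a mean-variance trend. Adjustment was by Benjamini-Hochberg over all genes, with a threshold of 0.05. The size of a change of a gene with few reads depends on this scale. Simulated counts, with 200 of 17675 genes changed by 1 log2 unit, gave a recovery of 78.5% in the design of the fathers, 91.0% in that of the offspring and 93.5% between generations. A simulated Ttr slope of 0.15 was recovered for 92.0%. The called differences of Inpp5f and Copg2 (0.15 each) and the slopes of Mest (0.064) and H13 (0.021) were below these simulated sizes. Recovery at such smaller sizes was not simulated. edgeR 4.0.16 and DESeq2 1.42.0 were run on the recovered whole reads. The labels do not say that libraries are separate animals, so p-values measure only the spread between these samples. No pair of libraries within a group agreed within sampling noise.

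The genes and lists were chosen with earlier results of these data known. Genes were named where they passed a test, were among the 3 higher or 3 lower genes with the smallest p in a comparison, or were the 3 with the most counts per kilobase in a class. Alternatives were other filters, scalings, tools and covariates, and left-out libraries. Coordinates are from GENCODE M21 (GRCm38), in which 51719 of 51912 identifiers were found when versions were ignored. Promoter sequences are from RefSeq on GRCm38.p6.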

Additional observations from a re-analysis of the deposited data

Results flagged for a closer look

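Of 144 combinations of an imprinted gene and a group, 11 held a library far from the rest of its group, where about 1 in 20 would do so by chance. Replicate 1 of the exercised fathers stood apart for 3 genes, with 1074 counts of Snurf (others 1229 to 1239), 1094 of Plagl1 (others 1484 to 1561) and 2660 of Kcnq1ot1 (others 1882 to 1995). Replicate 3 of the exercised fathers had 14525 counts of Nap1l5 (others 13008 to 13203) and 20.5 of H19 (others 2.00 to 2.09). In the sedentary fathers, replicate 1 had 19.5 counts of H19 (others 3.26 to 5.16) and replicate 4 had 475 of Ddc (others 231 to 239). In the offspring of sedentary fathers, replicate 7 had 30948 counts of Snrpn (others 26871 to 28556) and replicate 1 had 8705 of Ube3a (others 7801 to 8062). In the offspring of exercised fathers, replicate 7 had 1117 counts of Plagl1 (others 1400 to 1584) and replicate 3 had 2135 of H13 (others 2273 to 2359).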

How the results depend on the processing

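No paired analysis was possible because the labels give no replicate numbers. None of the 30 differences and slopes of the genes named by rule reversed under any of 960 alternative values. These genes were picked for small p in the same data, and many alternatives only left out 1 library, so a reversal was unlikely from the start. None of the class medians moved by more than 1 SD between libraries in 162, although some changed sign when 1 library was left out. That SD exceeded every class median, so a change of sign did not count as a move. Between the groups of fathers, the number of genes higher and lower in exercised fathers (0 and 0) was 5 and 4 with no filter on low values, 31 and 30 with DESeq2, 13 and 1 without sedentary fathers 3 and 4, and 0 and 1 without sedentary fathers 1 and 2. Between the groups of offspring DESeq2 gave 29 and 18, with 1 imprinted gene higher. For the difference between generations in the effect it was 1 and 3 with no filter and 6 higher with DESeq2.

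Fathers minus offspring (90 higher, 154 lower) gave 53 and 81 with no filter, 314 and 455 with DESeq2, 50 and 97 without AD21 libraries, 160 and 282 with Ttr as covariate, 4 and 8 with the thalamus covariate, 28 and 46 with title stems averaged, 59 higher with a Zic1 covariate, 9 and 7 without sedentary fathers 3 and 4, and 251 lower with quantile normalization. The 2 imprinted genes higher became 0 with no filter, without AD21 libraries, with the thalamus covariate, with title stems averaged and without sedentary fathers 3 and 4, and 1 with the Zic1 covariate. Imprinted genes lower became 1 with edgeR and with the Ttr covariate, and 2 with DESeq2. The Ttr slope (1034 higher, 241 lower) gave 219 and 6 in fathers, 672 and 37 in offspring, and for genes lower 137 with no filter, 372 with quantile normalization, 414 with edgeR, 429 with DESeq2, 146 without AD21 libraries, 74 with the thalamus covariate, 57 with the meningeal covariate and 55 without the 2 farthest libraries. Imprinted genes higher with Ttr became 1 in fathers. The causes were not tested.

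Leaving out 1 library at a time gave 0 to 1 genes higher and 0 to 1 lower between the groups of fathers, and 0 to 1 lower between the groups of offspring. Between generations it gave 24 (without exercised father 3) to 162 higher, 43 (without sedentary father 3) to 240 lower, 0 to 2 imprinted genes higher and 0 to 2 lower. For Ttr it gave 847 to 1397 higher, 57 to 951 lower, 3 to 4 imprinted genes higher and 0 to 1 lower. The covariate of Zic1, the meningeal covariate and the pairs of sedentary fathers left out were chosen after seeing the data. H19, Mkrn3 and Magel2 have the fewest reads of the 36 imprinted genes, and depth limits what can be said of them.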
